A study of Rattus norvegicus with 4 samples.

Results

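The genes described here are 10 members of the Notch pathway and its neural progenitor setting: the ligands Dll1, Dll3 and Jag1, the receptor Notch1, the target genes Hes1, Hes5 and Hey1, and the progenitor genes Sox2, Pax6 and Nes. They were chosen by gene name among the non-control probes of the 4 scanner files, which gave 10 of 34235 gene names and 12 of 41012 probes, with 2 probes each for Sox2 and Nes and 1 for every other gene. All 12 were well above background on all 4 arrays, and all 12 were among the 36700 probes that passed the filter on dim probes.

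The arrays measured RNA of primary cortical neurons cultured from Sprague Dawley rat embryos of both genders of stage E18.5. At day 2 in vitro one group was given a lentivirus with a control shRNA (shCTL) and the other a lentivirus with an shRNA against Cmtr1 (shCM1), the cap enzyme that adds a methyl group to the ribose next to the cap of an RNA. Both groups were harvested at day 7 and each has 2 arrays, collected over 2 independent experiments. Both groups thus carry a lentivirus, the shRNA sequences are not given in the sources used here, and sample titles say si where the shRNA field says sh. Whether the experiments used separate litters is not stated, so the spread between arrays of a group may be partly technical.

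Notch is a receptor on the cell surface that is cut when a Delta or Jagged ligand on a neighbouring cell binds it. The freed intracellular part enters the nucleus, joins the DNA-binding protein RBPJ and switches on repressors of the Hes and Hey families, which hold back proneural genes. In the embryonic cortex this keeps radial glia, the neural stem cells that express Sox2, Pax6 and Nes, from turning into neurons, and Sox2, Nes, Hes1, Hes5 and Notch1 are also expressed by astrocytes.

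Each value rests on 1 probe of 60 bases, printed in lower case for the targets Hes1 and Hes5 and for both probes of Sox2, because the results turn on them. Positions are those of the scanner files, whose headers name rat build rn4. The Hes1 probe lies at chr11:72605138-72605197 in transcript NM_024360, and the Hes5 probe at chr5:171764386-171764445 in NM_024383. The second Sox2 probe lies at chr2:120969725-120969784 in the Sox2 mRNA NM_001109181, while the first is assigned to XR_591019, a predicted non-mRNA transcript variant of Sox2, and its listed interval, chr2:120957476-120995522, encloses the second probe.
Hes1 probe: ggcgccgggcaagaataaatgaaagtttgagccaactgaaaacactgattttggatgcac
Hes5 probe: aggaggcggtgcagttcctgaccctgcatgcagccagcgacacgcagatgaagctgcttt
Sox2 probe 1: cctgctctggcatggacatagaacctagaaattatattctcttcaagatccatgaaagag
Sox2 probe 2: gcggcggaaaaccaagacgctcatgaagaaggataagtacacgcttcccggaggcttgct
The longest run of bases shared by any pair of the 12 probes was 8, so the probes of the Hes genes, and the 2 probes of Sox2, read different sequences. The remaining probes were Notch1 at chr3:4634122-4634181 (NM_001105721), Hey1 at chr2:95175952-95176011 (NM_001191845) and Dll1 at chr1:54240756-54240911 (NM_032063). Dll3 was at chr1:83373670-83373846 (NM_053666), Jag1 at chr3:125181316-125181375 (NM_019147) and Pax6 at chr3:91148755-91148814 (NM_013001). The Nes probes were at chr2:180060869-180060928 (probe 1) and chr2:180060663-180060722 (probe 2), both in NM_012987. For Dll1, Dll3 and Sox2 probe 1 the listed interval is longer than the probe, so these 3 probes map to more than 1 block of the genome. The files name no exon or untranslated region for any probe.

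RBPJ, the DNA-binding partner of cleaved Notch, recognises the core TGGGAA within the longer GTGGGAA, and Hes repressors bind N-boxes, CACNAG. Both strands of the 250 bases before each annotated start site were searched for these motifs in RefSeq's promoter table for build GRCr8, and every GTGGGAA match is also a TGGGAA match. The table holds 9 of the 10 genes and lacks Hey1. TGGGAA was found before 4 of the 9 start sites (Hes1, Hes5, Dll1 and Pax6) and in 22.1% of all 33469 promoters of that length. GTGGGAA was found before 3 of the 9 (Hes1, Hes5 and Dll1) and in 5.27% of all promoters. The 3 promoters with GTGGGAA are printed 5′ to 3′ along the gene, with each match in capitals, as TGGGAA on the strand of the gene or as TTCCCA where it lies on the other strand.
Hes1, chr11:84213046-84213295, minus strand: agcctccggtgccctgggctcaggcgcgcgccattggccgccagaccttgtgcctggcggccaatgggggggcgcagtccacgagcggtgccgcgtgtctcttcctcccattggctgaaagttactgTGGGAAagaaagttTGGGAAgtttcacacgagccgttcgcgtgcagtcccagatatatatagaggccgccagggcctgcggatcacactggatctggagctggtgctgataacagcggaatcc
Hes5, chr5:170804327-170804576, plus strand: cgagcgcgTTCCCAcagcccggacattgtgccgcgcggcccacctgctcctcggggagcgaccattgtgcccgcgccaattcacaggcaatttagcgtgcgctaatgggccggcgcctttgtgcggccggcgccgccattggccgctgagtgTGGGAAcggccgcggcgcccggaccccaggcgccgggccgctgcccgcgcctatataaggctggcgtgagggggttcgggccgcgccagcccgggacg
Dll1, chr1:64993275-64993524, minus strand: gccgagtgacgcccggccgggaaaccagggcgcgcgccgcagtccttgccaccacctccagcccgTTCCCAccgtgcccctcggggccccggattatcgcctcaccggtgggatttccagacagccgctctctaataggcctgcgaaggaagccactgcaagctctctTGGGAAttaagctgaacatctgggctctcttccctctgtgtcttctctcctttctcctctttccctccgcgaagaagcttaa
Hes1 and Dll1 each have 2 TGGGAA matches, of which 1 extends to GTGGGAA, and in Hes5 both of 2 do. A promoter with 2 or more GTGGGAA matches was found in 0.185% of the table. The N-box was found before Notch1 (4 matches), Hes1 (4) and Pax6 (1), and in 37.2% of all promoters. The matches are a description of these sequences and were not tested for binding.

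**Figure D1:**
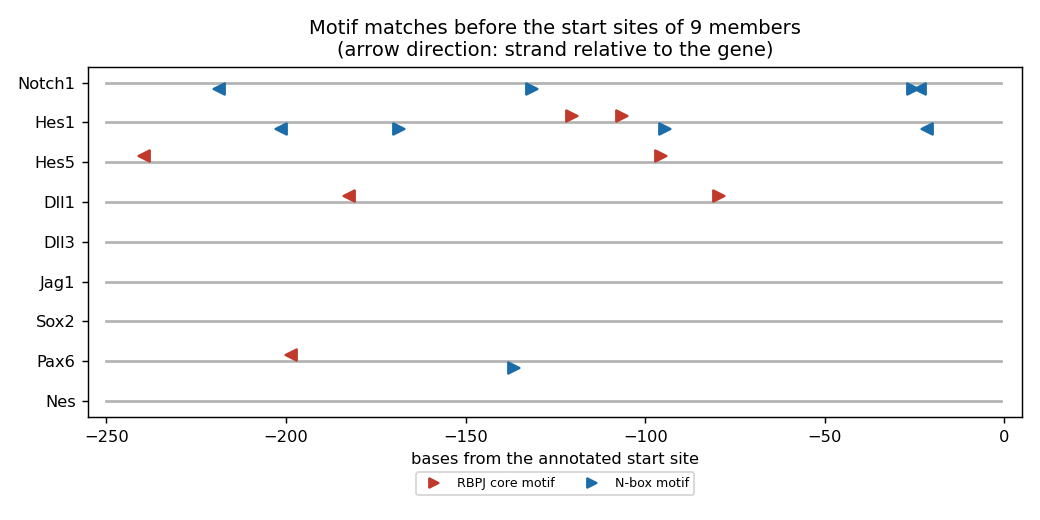
Positions of motif matches in the 250 bases before the annotated start site of 9 members, in bases from the start site (x axis), 1 row per gene; red arrows mark TGGGAA, blue arrows CACNAG, and arrows point along the strand of the match relative to the gene. Red arrows occur in the rows of Hes1, Hes5, Dll1 and Pax6, and blue arrows in those of Notch1, Hes1 and Pax6.

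The comparison asks how the RNA of these genes differs in cultures with less Cmtr1 RNA. Cmtr1, the targeted gene, had log2 levels of -1.43 and -1.86 in shCTL and of -3.46 and -3.53 in shCM1, without overlap, which is 27.7% of control. Each slide carried the shCTL and the shCM1 array with its own replicate number, 1 or 2, and the share of probes well above background ran from 84.0% to 90.4%. Levels are log2 signals relative to the 75th percentile of the same array, differences are shCM1 minus shCTL on that log2 scale with the standard error (SE) of the limma fit without a block, and n is 2 arrays per group throughout. For a single probe the smallest p that an exact permutation test can reach here is 0.33. A second limma fit took the slide as a block; in it the spread of each probe is drawn strongly towards that of probes of like brightness, with a prior worth 14.8 degrees of freedom.

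Sox2 and Hes5 rose in the slide-blocked fit, and no member fell. Sox2 stood at 1.36-fold its control level by the probe in its mRNA (probe 2). Sox2 probe 1, assigned to a predicted non-mRNA variant, stood at 1.33-fold. Hes5 stood at 1.80-fold, most of it from slide 2. These are 3 of 12 probes called higher, against 3.2% of all probes called higher and 2.69% called lower in that fit. Without the block 0 of 36700 probes were called (0%), with 1110 (3.02%) at an unadjusted p under 0.05, of which 1 was a member probe, Sox2 probe 1. The slide-blocked fit without its intensity trend also called 0 probes, with 6290 at an unadjusted p under 0.05. All calls named here therefore rest on the block and on the intensity trend together.

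Within the slides, 9 of the 12 probes were higher in shCM1 on both, 1 was lower on both (Jag1) and 2 went opposite ways (Hes1 and Nes probe 2), while 44.2% of all probes were higher and 22.6% lower on both. In all, 10 of 12 kept 1 direction, as did 66.8% of all probes. The groups did not overlap for 7 probes, 6 with shCM1 above shCTL and Jag1 below, where 31.8% of all probes did not overlap (21.8% with shCM1 higher, 10% lower). No member reached 1.5-fold within both slides, a size that 1.67% of all probes reached upwards and 0.6% downwards. Levels differed between slides in their own right: 4 of the 12 probes (Notch1, Hes5, Sox2 probe 2 and Pax6) were higher on slide 2 in both groups, as were 35.8% of all probes, and 1 (Jag1) was lower there in both, as were 40.6%.

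The median difference was 0.32 over the member probes and 0.08 over all probes. On slide 1 these medians were 0.12 and 0.08, and on slide 2 they were 0.51 and 0.07. The difference was larger on slide 2 than on slide 1 for 12 of 12 member probes and for 44.9% of all probes. That count stayed 12 of 12 under each of the 5 scalings tried, where the share of all probes ran from 37.6% to 50.8%. On slide 1 the median of the members thus lay close to that of all probes, and probes on the same arrays are not independent of each other.

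**Figure D2:**
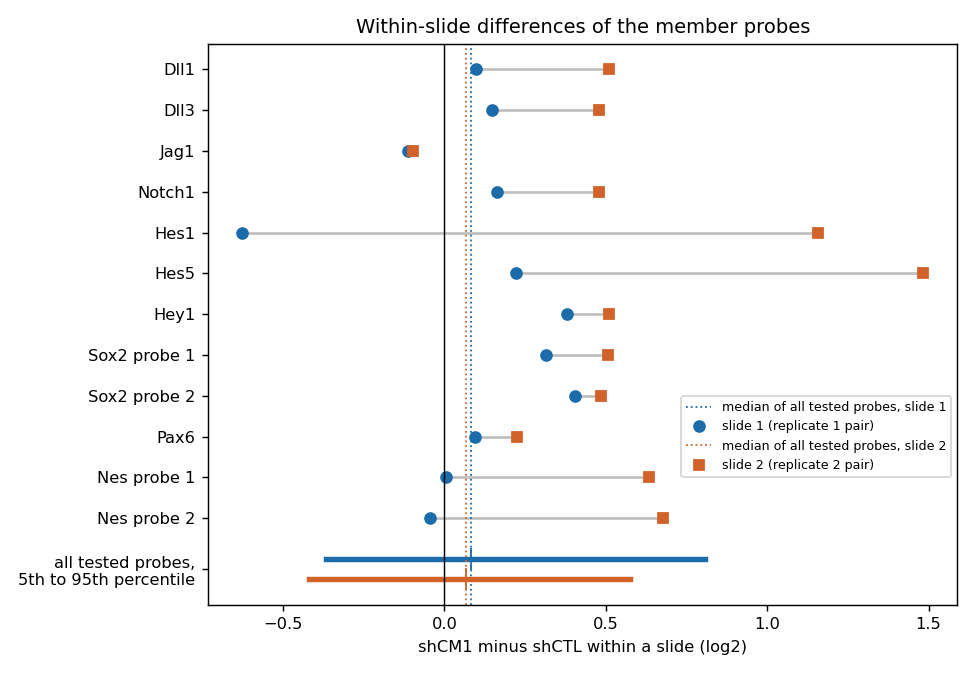
Difference shCM1 minus shCTL (log2, x axis) of each member probe within slide 1 (blue circles) and slide 2 (orange squares), with grey lines joining the slides; the bars at the bottom span the 5th to 95th percentile of all tested probes per slide and dotted lines mark their medians, 0.08 and 0.07. For all 12 probes the slide 2 square lies right of the slide 1 circle, widest for Hes1 (-0.63 and 1.16) and Hes5 (0.22 and 1.48).

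Among the ligands, Dll1, a Delta ligand that activates Notch on neighbouring cells, had levels of -0.14 and -0.25 in shCTL replicates 1 and 2 and of -0.04 and 0.26 in shCM1 replicates 1 and 2. Both shCM1 arrays lay above both shCTL arrays, by a small margin on slide 1. The difference was 0.30 (SE 0.18), made of 0.10 on slide 1 and 0.51 on slide 2, and did not pass (limma with the block, adjusted p = 0.132). Dll3, a divergent Delta protein that acts inside the producing cell rather than as an activating ligand, had levels of 1.80 and 1.52 in shCTL and of 1.95 and 2.00 in shCM1. The groups again did not overlap, and the lowest array was shCTL replicate 2. The difference of Dll3 was 0.31 (SE 0.17), with 0.15 and 0.48 within the slides (limma with the block, adjusted p = 0.0770).

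Jag1, the Jagged ligand, was the exception in direction among the members. Its levels were -0.32 and -0.39 in shCTL and -0.43 and -0.48 in shCM1, so both shCM1 arrays lay below both shCTL arrays, by little. Jag1 differed by -0.11 (SE 0.16), with -0.11 and -0.10 within the slides, and did not pass (limma with the block, adjusted p = 0.590). The 95% interval of the difference in the blocked fit ran from -0.33 to 0.12.

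Notch1, the receptor, was a dim probe, with signals of 43.1 and 53.1 in shCTL and of 44.1 and 73.1 in shCM1. Its levels were -3.92 and -3.83 in shCTL and -3.76 and -3.35 in shCM1, with the highest in shCM1 replicate 2. The difference was 0.32 (SE 0.24), with 0.16 and 0.48 within the slides, and did not pass (limma with the block, adjusted p = 0.288). For Notch1 the difference came to 0.15 after quantile normalization, 0.14 after cyclic loess, 0.17 with normexp and 0.15 in the authors' table. On slide 1 it turned to -0.06 under both quantile normalization and cyclic loess and to -0.05 in that table.

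The target genes behaved unlike one another. Hes5, a repressor of proneural genes and a main Notch target in radial glia, had processed signals of 128 and 293 in shCTL replicates 1 and 2 and of 137 and 807 in shCM1 replicates 1 and 2. The levels of Hes5 were -2.35 and -1.37 in shCTL and -2.13 and 0.12 in shCM1. The groups overlapped: shCM1 replicate 1 lay below shCTL replicate 2, and shCM1 replicate 2 stood far above the other 3 arrays. Hes5 was 1.16-fold higher on slide 1 and 2.80-fold on slide 2 (differences 0.22 and 1.48). The mean difference was 0.85 (SE 0.77), and the 95% interval in the blocked fit ran from 0.43 to 1.27 (limma with the block, adjusted p = 0.0189). Both within-slide differences of Hes5 lie outside that interval. Its width comes mostly from probes of like brightness and does not measure the spread of Hes5 itself. Between the 2 shCTL arrays alone Hes5 differed by 0.98, more than between the groups.

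The call of Hes5 depended on the scaling. With the block its adjusted limma p was 0.0686 after quantile normalization, 0.117 after cyclic loess, 0.0519 with normexp and 0.108 in the authors' table, while the difference stayed between 0.72 and 0.85. Without shCM1 replicate 2 the difference turned to -0.27, without shCTL replicate 1 it was 0.36, without shCTL replicate 2 it was 1.34 and without shCM1 replicate 1 it was 1.97. The 3 genes whose 4 centred levels lay nearest to those of Hes5 were Id3, Csf3r and Isg15, at root mean square distances of 0.28, 0.29 and 0.29 over the 4 arrays, among 19606 probes compared.

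Hes1, the related repressor that keeps progenitors undifferentiated, went opposite ways on the slides. Its levels were -3.65 and -3.73 in shCTL and -4.28 and -2.57 in shCM1, so that the shCTL arrays lay close together between the shCM1 arrays. Hes1 differed by -0.63 on slide 1 and by 1.16 on slide 2, and the mean of 0.27 (SE 0.56) did not pass (limma with the block, adjusted p = 0.603). The mean was 0.09 after quantile normalization and 0.11 in the authors' table. It was -0.59 when shCM1 replicate 2 was left out. Hes1 signals were dim, from 30.8 in shCM1 replicate 1 to 125 in shCM1 replicate 2.

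Hey1, a Notch target of the related Hey family, was the most even of the target genes. Its levels were -3.33 and -3.40 in shCTL and -2.95 and -2.89 in shCM1, and the groups did not overlap. Hey1 was 1.36-fold its control level, a difference of 0.44 (SE 0.19), which was 0.38 on slide 1 and 0.51 on slide 2. It did not pass (limma with the block, adjusted p = 0.0913), and its difference was 0.29 after quantile normalization, 0.29 after cyclic loess, 0.29 in the authors' table and 0.24 with normexp.

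**Figure D3:**
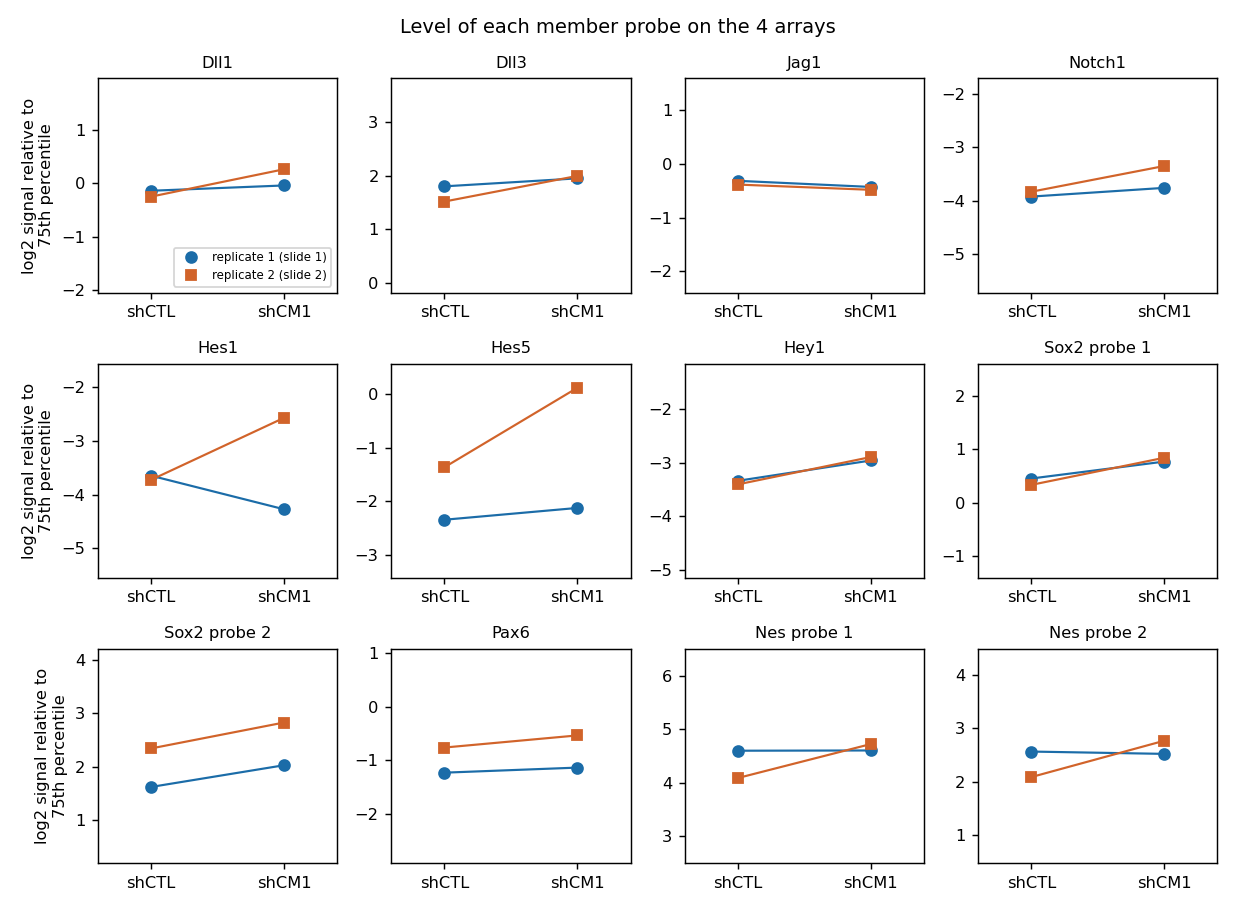
Level of each of the 12 member probes (y axis, log2 signal relative to the 75th percentile of the same array) in shCTL and shCM1, with lines joining the arrays of slide 1 (blue circles) and of slide 2 (orange squares); each panel spans the same number of log2 units around the mean of its probe. The lines of Hey1 and of Sox2 probe 1 nearly coincide, those of Sox2 probe 2 run parallel at different heights, and those of Hes1 start together in shCTL and run apart.

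Of the progenitor genes, Sox2, the transcription factor that maintains neural stem cells, gave the steadiest difference. By the probe in its mRNA (probe 2) the levels were 1.62 and 2.34 in shCTL and 2.03 and 2.83 in shCM1. The groups overlapped because both arrays of slide 2 were higher than those of slide 1, by 0.72 in shCTL and 0.80 in shCM1, while within each slide shCM1 was higher. Sox2 probe 2 differed by 0.41 on slide 1 and 0.48 on slide 2, a mean of 0.44 (SE 0.36) that passed with the block (limma, adjusted p = 0.00824), with a 95% interval from 0.25 to 0.63. It passed under all 5 scalings, with differences from 0.43 to 0.51, and did not pass without the filter on dim probes (limma with the block, adjusted p = 0.0600) or without the intensity trend (0.245). In fits without a block its difference was 0.09 without shCTL replicate 1, 0.05 without shCM1 replicate 2, 0.80 without shCTL replicate 2 and 0.84 without shCM1 replicate 1, each of which leaves the slides unequal between the groups.

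The probe in the predicted Sox2 variant (probe 1) differed by nearly as much, from levels with another pattern. They were 0.45 and 0.33 in shCTL and 0.77 and 0.84 in shCM1, with no overlap of the groups and no common rise on slide 2. Sox2 probe 1 differed by 0.32 and 0.51 within the slides, a mean of 0.41 (SE 0.15) that passed with the block (limma, adjusted p = 0.0268). The adjusted limma p with the block was 0.0385 after quantile normalization. This adjusted p missed the threshold after cyclic loess (0.0591), with normexp (0.0736) and in the authors' table (0.0530). It also did so without the filter (0.103) and without the intensity trend (0.256). Probe 1 is assigned to a transcript other than the Sox2 mRNA, with an interval that reaches beyond probe 2 on both sides. It is therefore not taken as a second measure of that mRNA, and which transcript it reads was not tested.

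By the same measure of likeness, Zfp26, Clcn1 and Snorc lay nearest to Sox2 probe 2 (root mean square distances of 0.0068, 0.012 and 0.018). Nearest to Sox2 probe 1 were Ccng1, Hgd and Msx1 (0.014, 0.016 and 0.018). Each distance rests on 4 values per probe, and whether it is smaller than unrelated genes would give was not tested.

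Pax6, a transcription factor of cortical radial glia, had levels of -1.23 and -0.76 in shCTL and of -1.14 and -0.54 in shCM1. The groups overlapped, with slide 2 above slide 1 in both. Pax6 differed by 0.16 (SE 0.28), with 0.09 and 0.23 within the slides, and did not pass (limma with the block, adjusted p = 0.423). Its 95% interval ran from -0.08 to 0.40, and its difference was -0.07 without shCTL replicate 1 and -0.14 without shCM1 replicate 2.

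Nes encodes nestin, an intermediate filament protein of neural progenitors and reactive astrocytes, and its 2 probes gave the same picture. Levels by probe 1 were 4.60 and 4.09 in shCTL and 4.60 and 4.72 in shCM1, and by probe 2 they were 2.56 and 2.09 in shCTL and 2.52 and 2.77 in shCM1. In both, shCTL replicate 2 was the lowest array and shCM1 replicate 2 the highest, and the groups barely separated by probe 1 and overlapped by probe 2. The differences on slide 1 were 0.00 and -0.04, and those on slide 2 were 0.63 and 0.68. Both means were 0.32 (SE 0.20 and 0.21), and neither passed (limma with the block, adjusted p = 0.102 and 0.148). They were 0.06 and 0.08 without shCTL replicate 2 and 0.57 and 0.56 without shCTL replicate 1, and probe 2 had 0.19 without shCM1 replicate 2.

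**Figure D4:**
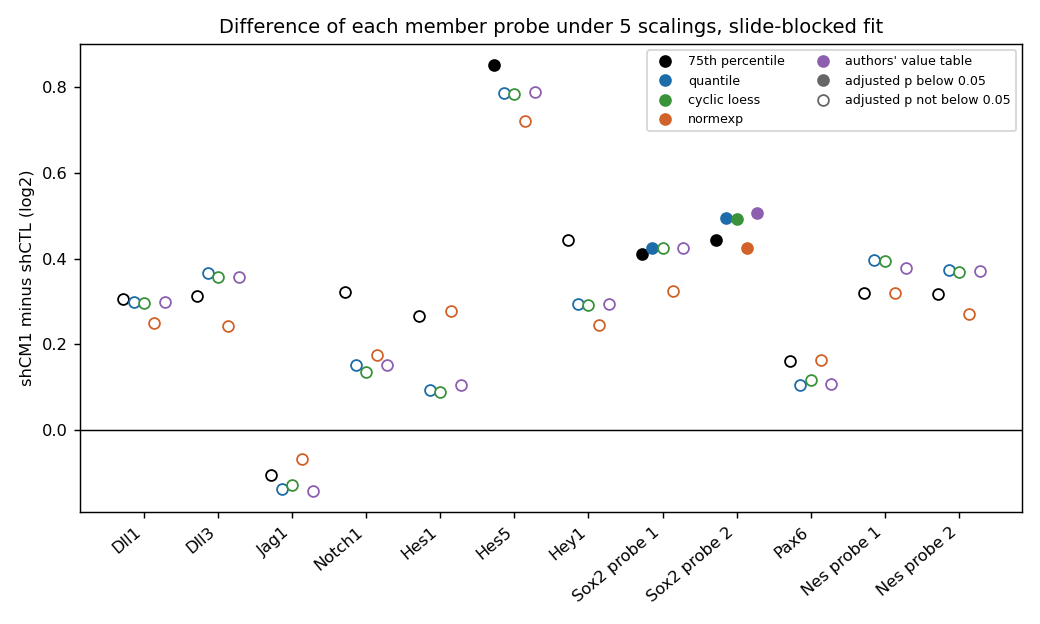
Difference shCM1 minus shCTL (log2, y axis) of each member probe in the slide-blocked limma fit under 5 scalings (colours); filled points have an adjusted p below 0.05. Sox2 probe 2 is filled under all 5, Sox2 probe 1 under the 75th percentile and quantile scalings, Hes5 under the 75th percentile alone, and 11 of 12 probes lie above 0 under every scaling.

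The rest of the pathway was followed through lists of 102 other genes, of which 86 were measured. Of these, 7 rose and 6 fell in the blocked fit, where 3.2% of all probes were called higher and 2.69% lower. Among 6 other ligands and receptors, 0 passed and the median difference was -0.02. Notch3, a receptor paralogue, had -0.21 (SE 0.18), with 0.03 and -0.46 within the slides, and the ligand-like Dlk1 had 0.43 (SE 0.21), with 0.39 and 0.47. Among 22 genes of ligand and receptor processing 0 rose and 1 fell, with a median of 0.08. That gene was Furin, the protease that cuts the Notch precursor during maturation, at -0.41 (SE 0.17; limma with the block, adjusted p = 0.0250). The call of Furin was lost after cyclic loess (0.0612), with normexp (0.0653) and in the authors' table (0.0553).

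Among 12 nuclear factors of the pathway 0 rose and 1 fell, with a median of 0.02. Tle3, a Groucho corepressor that Hes proteins recruit, fell by 0.47 (SE 0.15), with -0.50 and -0.44 within the slides (limma with the block, adjusted p = 0.00866), and kept its call under all 5 scalings. Of 6 other genes of the Hes and Hey families, listed as targets, 0 passed and 4 were higher within both slides, as were 44.2% of all probes. These were Hes2, Hes3, Hes6, Hes7, Hey2 and Heyl, and whether each is a target of Notch in these cultures was not tested. The median of the 6 genes was 0.21, against 0.08 after quantile normalization, 0.09 in the authors' table and after cyclic loess, and 0.10 with normexp. Hey2 had 0.32 (SE 0.17) by its brighter probe and 0.44 by the other. Hes2 had 0.55 (SE 0.63), which was -0.27 without shCTL replicate 1.

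Of 17 other genes of radial glia and progenitors 4 rose and 1 fell, with a median of 0.14, which was 0.08 after quantile normalization. Ccnd2, a cyclin of cortical progenitors, rose by 0.45 (SE 0.18; limma with the block, adjusted p = 0.0125), and held its call under all 5 scalings. Id4, an inhibitor of proneural factors, had 0.42 (SE 0.22; limma with the block, adjusted p = 0.0248), and Msi2, an RNA-binding protein, had 0.42 (SE 0.26; 0.0279). Their other probes had 0.18 and 0.09. Both calls were lost after cyclic loess (limma with the block, adjusted p = 0.0553 and 0.0715). That of Id4 was also lost with normexp (0.0528) and that of Msi2 in the authors' table (0.0689). Without shCTL replicate 1 Id4 had 0.23 and Msi2 0.16, and without shCM1 replicate 2 they had 0.24 and 0.20. Msi2 had 0.69 without shCTL replicate 2 and 0.65 without shCM1 replicate 1, and its call was also lost after quantile normalization (0.0553). Prom1, a membrane protein of neural stem cells picked out after its value was seen, was the fourth that rose, at 0.39 (limma with the block, adjusted p = 0.0366), and lost its call after cyclic loess, with normexp and in the authors' table. Lhx2, a transcription factor of cortical progenitors and of upper-layer neurons, fell by 0.49 (SE 0.25; limma with the block, adjusted p = 0.00424). Lhx2 had -0.32 without shCTL replicate 2, -0.18 without shCM1 replicate 1 and -0.80 without shCM1 replicate 2.

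Of 12 listed genes of intermediate progenitors and of cells leaving the progenitor state, 8 were measured. Eomes, Neurog1, Neurog2 and Insm1 were not: 3 had no probe under the names used and 1 was not well above background. Of the 8 measured, 3 rose and 0 fell, with a median of 0.29 (0.14 on slide 1 and 0.54 on slide 2). Within both slides 4 were higher and 2 lower. With normexp 2 rose and the median was 0.15. Btg2, an antiproliferative gene of neuron-producing progenitors, had levels of 1.27 and 1.26 in shCTL and of 2.02 and 2.31 in shCM1, with no overlap. It rose by 0.90 (SE 0.17; limma with the block, adjusted p = 6.02e-05), and kept its call under all 5 scalings and without the filter on dim probes. Gadd45g, a growth arrest gene, had levels of 1.01 and 1.26 in shCTL and of 1.52 and 2.45 in shCM1, likewise without overlap. It rose by 0.85 (SE 0.33; limma with the block, adjusted p = 8.67e-04), with 1.31 without shCM1 replicate 1 and 0.38 without shCM1 replicate 2. Btg2 and Gadd45g are also induced by stress and by neuronal activity, and their part in the progenitor state was not tested.

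Of 15 proliferation genes measured 0 rose and 3 fell (1 fell after cyclic loess). Within both slides 11 were lower and 0 higher, against 22.6% and 44.2% of all probes. The median of the list was -0.33 (-0.54 on slide 1 and -0.12 on slide 2). Among the 12 that did not pass, Mki67 had -0.39, while Tyms and Rrm2 had 0.09 each. The other probe of Mki67 had -0.33, and that of Rrm2 went the opposite way to its brighter probe, with -0.35. Cdk1, the mitotic kinase, fell by 0.51 (SE 0.25; limma with the block, adjusted p = 0.00713, and 0.0594 after cyclic loess). Birc5, which encodes survivin, fell by 0.44 (SE 0.27; limma with the block, adjusted p = 0.0148). Ccnb1, a mitotic cyclin, fell by 0.45 (SE 0.18; limma with the block, adjusted p = 0.0339), with -0.19 by its other probe, and of the other scalings it was called after quantile normalization alone. Cdk1 had -0.19 without shCM1 replicate 1 and -0.83 without shCM1 replicate 2. Birc5 had -0.69 without shCTL replicate 1, -0.19 without shCTL replicate 2, -0.17 without shCM1 replicate 1 and -0.71 without shCM1 replicate 2.

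**Figure D5:**
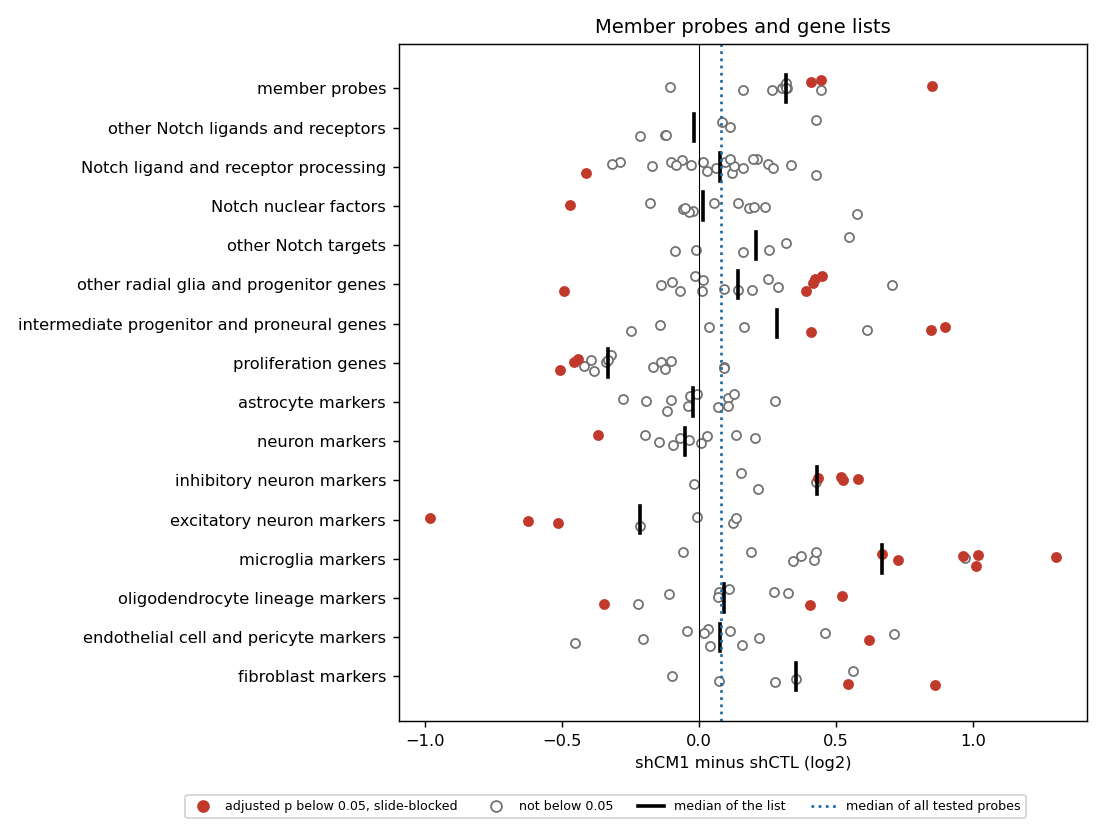
Difference shCM1 minus shCTL (log2, x axis) of the 12 member probes, of the genes of 7 pathway and progenitor lists and of 8 cell type marker lists, 1 point per gene in the lists; red points have an adjusted limma p below 0.05 with the slide block, black bars are medians and the dotted line is the median of all tested probes (0.08). Members have a median of 0.32, proliferation genes of -0.33 and astrocyte markers of -0.02.

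In bulk RNA, fewer cells of a type and less RNA per cell cannot be told apart, so markers of the cells that express these genes are given beside them. Of 12 astrocyte markers 0 passed the blocked limma fit (where 5.9% of all probes did), with 3 higher and 4 lower within both slides. Their median was -0.02. The differences ran from -0.28 (Aldh1l1) to 0.28 (Gjb6), with -0.03 for Gfap and 0.13 for Slc1a3, a glutamate transporter shared with radial glia. After quantile normalization, cyclic loess and in the authors' table the median was 0.03, 0.02 and 0.03. The summed astrocyte signal, relative to the 75th percentile, was 139 and 154 in shCTL and 151 and 152 in shCM1, so the groups overlapped. Of the list of radial glia and progenitor genes, Vim and Fabp7, which astrocytes share, had 0.09 and 0.20. Sox9 and Tnc, likewise shared, had -0.14 and -0.07 by their brightest probes. Their other probes ran from -0.22 to 0.10 for Sox9 and from 0.06 to 0.15 for Tnc. None of these 4 genes passed by its brightest probe. Neuron markers had a median of -0.05 over 10 genes, with 0 that rose and 1, Tubb3, that fell (-0.37). That call was lost in the authors' table and after cyclic loess, and the median was 0.02 after cyclic loess.

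Other markers did differ. Of 8 inhibitory neuron markers 4 rose and 0 fell (Dlx5, Gad1, Gad2 and Dlx1), with a median of 0.43. Within both slides 7 were higher, against 44.2% of all probes. The summed signal of these markers was 238 and 148 in shCTL and 280 and 155 in shCM1. Most of these sums came from Sst and Npy, which did not pass and had differences of 0.21 and -0.02. Of 7 excitatory neuron markers 0 rose and 3 fell, Camk2a and Neurod6 among them, with sums of 30.4 and 28.3 in shCTL and 25.1 and 24.1 in shCM1. Within both slides 2 were higher and 3 lower. Their median difference was -0.22, with -0.44 on slide 1 and 0.01 on slide 2. The median over both slides was -0.04 with normexp, -0.38 after quantile normalization and in the authors' table, and -0.39 after cyclic loess, with 3 that fell in each. Of 13 microglial markers 6 rose and 0 fell, with a median of 0.67 and sums of 2.88 and 2.59 in shCTL and of 4.35 and 3.30 in shCM1. With normexp 5 rose and the median was 0.28. Their differences were larger on slide 1 (median 0.93) than on slide 2 (0.48), the reverse of the members.

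Among 10 markers of the oligodendrocyte lineage, which also expresses Sox2, 2 rose, Mbp among them, and 1 fell (Cspg4), with a median of 0.09 and sums of 50.8 and 59.2 in shCTL and of 45.6 and 57.9 in shCM1. The call of Cspg4 was lost in the other 4 scalings, and 1 gene rose after quantile normalization and with normexp and 0 in the authors' table and after cyclic loess. Of 7 fibroblast markers 2 rose (Dcn and Col1a2), with a median of 0.36 and sums of 9.95 and 12.8 in shCTL and of 10.1 and 15.0 in shCM1. Most of these sums came from Pdgfra, which did not pass and had a difference of 0.07. The same probe of Pdgfra is also in the oligodendrocyte lineage list, so these sums do not measure fibroblasts alone. With normexp the median was 0.18, and 1 rose in the authors' table and after cyclic loess. Of 12 endothelial and pericyte markers 1 rose (Pdgfrb), with a median of 0.08 and sums of 0.87 and 1.27 in shCTL and of 1.21 and 1.35 in shCM1. None was called after quantile normalization, cyclic loess or in the authors' table, where the median turned to -0.12, -0.13 and -0.12. Apart from 1 microglial marker, Itgam, every listed marker was well above background on at least 2 arrays, none of the measured markers was at 0, and the part of these cell types in the differences of the members was not tested.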

How the data were processed

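Per the labels' protocols, total RNA was amplified, labelled with Cy3 and hybridised to single-colour Agilent arrays. The scanner files, as deposited, give the processed intensity of each spot, linear and background-corrected within its array. Per the file headers the software was Agilent Feature Extraction, version 10.7.3.1, and nothing was scaled between arrays. The authors' value table also holds deposited linear intensity values (column medians 117.7, 131.9, 117.6 and 132.0); how it was scaled is not stated in the sources, and it served as an alternative.

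Outlier spots (86 to 98 per array) were left out, spots of a probe averaged, log2 taken and the array's 75th percentile subtracted. The tested probes were well above background on 2 or more of 4 arrays, and were fitted with limma 3.58.1 in R 4.3.3 (eBayes with intensity trend, two-sided, Benjamini-Hochberg over all 36700 probes, threshold 0.05), once with group alone and once with slide added as a block. The script was tested on simulated data. For arrays, their number limits the precision.

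The headers give the pairing by slide: replicate number, slide and scan are the same split, and whether each slide holds 1 experiment is not stated. Over probes, the deviations from the group mean of arrays sharing a number had a correlation of 0.713. The leading principal component (65.1% of variance) separated the slides and the next (25.1%) the groups.

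Members were taken by the gene name in the files. For the lists, probes were named through RefSeq's gene table for GRCr8, 18971 by accession, 2995 by symbol and 203 by an older symbol, while 18843 kept the file's name, and a gene was represented by its brightest probe. From each list the text names up to 4 genes called in the blocked fit by smallest p or, where none was called, the 2 with the smallest p, and for each called member probe the 3 most similar genes. Genes of cell type lists, Prom1 and list genes cited for context were picked out after their values were seen. Some list genes that this rule covers are not reported here. Members and lists were chosen with earlier results of these data known. The alternatives were 5 scalings, the filter, the trend, the block and leaving out each array.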

Additional observations from a re-analysis of the deposited data

How the results depend on the processing

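The slide block (replicate block) decided every call. Over all probes it gave 1176 higher and 988 lower against 0 and 0 without it; with the block these were 545 and 808 with quantile normalization, 369 and 603 with cyclic loess, 635 and 787 with normexp, 429 and 679 in the authors' table, 107 and 248 without the filter on dim probes, and 1137 and 998 for probes well above background on all 4 arrays. The share of calls that were higher was 54.3% in the main scaling, 40.3% after quantile normalization, 38.0% after cyclic loess, 44.7% with normexp and 38.7% in the authors' table. In the same order of settings, the block called 3, 2, 1, 1, 1, 0 and 3 member probes higher, and 7, 6, 4, 4, 5, 1 and 7 list genes higher and 6, 6, 3, 4, 4, 0 and 6 lower. Dropping the intensity trend from the blocked fit left 0 calls, with 6290 probes at an unadjusted limma p under 0.05, and the fit without block or trend called 0, with 1386. Without a block, leaving out any 1 array also called 0.

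Member directions held in every scaling, with 11 of 12 higher. The count of member probes with 1 direction within both slides was 10, or 9 after cyclic loess, and under quantile normalization and in the authors' table Notch1 left these 10 and Nes probe 2 joined. Leaving out 1 array turned Hes1 (range -0.59 to 1.12), Hes5 (-0.27 to 1.97) and Pax6 (-0.14 to 0.46, with -0.07 without shCTL replicate 1), and moved Notch1 (0.12 to 0.53), Dll1 (0.15 to 0.46), Dll3 (0.17 to 0.46) and both Nes probes by over 1.5 times, and 8 of 12 probes were higher without shCM1 replicate 2. These fits leave the slides unequal between groups, and the cause of the other changes was not tested. The Notch1, Hes1 and Hey1 probes have low signals.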
